A study of Mus musculus with 8 samples.

Results

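The small nuclear and nucleolar RNA genes were taken from the GENCODE M21 annotation of the mouse genome as the genes of biotype snRNA, snoRNA or scaRNA that had at least 20 counts summed over the 8 libraries. Of 41214 counted genes, 2908 had one of these biotypes, and 139 passed this minimum. By symbol, 16 were box C/D genes (Snord, and the U3 gene Rnu3a), 21 were box H/ACA genes (Snora), 9 were Cajal body genes (Scarna) and 2 were spliceosomal RNA genes with an Rnu symbol (Rnu11 and Rnu12). The other 91 had a symbol that named no class, 25 of them of biotype snRNA, 58 of biotype snoRNA and 8 of biotype scaRNA. These 91 are called unnamed below.

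The libraries came from total bone marrow of C57Bl6 mice, 2 mice in each of 4 groups, and no wild type library was analysed here. The mice labelled Gfi1KD Young (young KD) were 39 and 42 days old and those labelled Gfi1KO Young (young KO) were 48 and 44 days old. The mice labelled Gfi1KO Old (old KO) were 158 and 101 days old, and those labelled Gfi1KD Sick (sick KD) were 187 and 78 days old and carried the leukemia status AML, which the study describes as a myeloproliferative neoplasm. KD mice carry a human GFI1 cDNA in the Gfi1 locus with a cassette that lowers its expression, and KO mice are those the study describes as lacking Gfi1. Gfi1 is a transcription factor that can repress its target genes and that controls myeloid differentiation. Groups are named by these labels throughout, and every direction below rests on them.

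Small nuclear RNAs are the RNA cores of the spliceosome. U1 pairs with the start of an intron, U2 with its branch point, and U4, U5 and U6 join as a tri-snRNP, while U11, U12, U4atac and U6atac do this work for a small class of introns. Small nucleolar RNAs guide chemical changes of ribosomal RNA, box C/D RNAs ribose methylation and box H/ACA RNAs pseudouridylation, and a few of them (U3, U8, U17) instead serve the cleavage of the ribosomal RNA precursor. Small Cajal body RNAs guide the same changes on the spliceosomal RNAs. Most snoRNAs of mammals are cut from introns of host genes, and none of these RNAs is known to end in the long poly(A) tail of an mRNA, whereas the libraries were prepared with a kit that selects poly(A) RNA. The levels below are what such libraries retained of these RNAs.

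The sequences of 10 members are given first, since they define the types the results are ordered by (RNA sense strand as DNA letters, from the transcripts of GENCODE M21; positions are in GRCm38, the build of mm10). The most counted U1-type gene was Gm22513 (chr12:54696782-54696945, plus strand). Its capitals mark the letters that pair with the start of an intron (ACTTACC) and the site of the Sm protein ring (ATTTGTG).
Gm22513: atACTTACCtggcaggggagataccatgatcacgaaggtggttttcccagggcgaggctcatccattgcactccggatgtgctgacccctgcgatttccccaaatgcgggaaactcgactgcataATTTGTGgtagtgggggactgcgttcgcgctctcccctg
The U2-type genes Gm25939 (chr1:72255008-72255198, plus strand) and Gm25360 (chr1:72226240-72226430, plus strand) are shown as a pair. The ratio of their counts, given below and not tested, was lowest in the sick KD and highest in the old KO libraries. Capitals mark the branch point letters (GTAGTA) and a match to the Sm motif (ATTTTTG).
Gm25939: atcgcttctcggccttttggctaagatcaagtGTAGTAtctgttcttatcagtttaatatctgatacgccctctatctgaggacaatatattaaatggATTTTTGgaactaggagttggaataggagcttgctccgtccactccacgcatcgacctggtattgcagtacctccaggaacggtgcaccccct
Gm25360: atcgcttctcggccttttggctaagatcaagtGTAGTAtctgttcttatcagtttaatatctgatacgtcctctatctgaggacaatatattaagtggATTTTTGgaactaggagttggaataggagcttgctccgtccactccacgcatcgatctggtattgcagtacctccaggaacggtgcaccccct
Gm24265 (chr5:115489459-115489599, plus strand) and Gm24407 (chr5:115490254-115490394, plus strand) are a tandem pair with the sequence of U4, and capitals mark the Sm motif.
Gm24265: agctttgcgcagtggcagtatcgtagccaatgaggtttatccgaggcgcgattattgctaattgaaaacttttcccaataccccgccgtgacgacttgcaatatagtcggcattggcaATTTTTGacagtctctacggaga
Gm24407: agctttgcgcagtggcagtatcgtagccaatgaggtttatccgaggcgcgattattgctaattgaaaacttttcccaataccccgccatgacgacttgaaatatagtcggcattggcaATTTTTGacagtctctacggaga
The minor spliceosome is represented by Rnu11 (chr4:132270080-132270213, minus strand) and Rnu12 (chr15:83149644-83149794, plus strand). Capitals mark the Sm motif in both (ATTTTTTG and ATTTTTG) and the branch point letters of U12 (GTAAGGA).
Rnu11: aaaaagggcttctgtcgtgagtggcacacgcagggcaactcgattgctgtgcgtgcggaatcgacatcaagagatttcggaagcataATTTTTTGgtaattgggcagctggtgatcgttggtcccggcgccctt
Rnu12: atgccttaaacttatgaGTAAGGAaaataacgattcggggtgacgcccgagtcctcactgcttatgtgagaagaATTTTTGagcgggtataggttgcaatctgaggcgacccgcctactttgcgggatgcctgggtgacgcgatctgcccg
Snora73a (chr4:132352775-132352979, minus strand) and Snora73b (chr4:132352322-132352526, minus strand), the U17 genes, are the leading box H/ACA members. Capitals mark the ACA at the end.
Snora73a: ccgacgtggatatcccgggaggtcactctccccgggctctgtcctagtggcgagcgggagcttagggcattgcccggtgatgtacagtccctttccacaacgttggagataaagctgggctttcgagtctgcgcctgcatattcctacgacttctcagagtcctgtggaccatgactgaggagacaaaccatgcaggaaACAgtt
Snora73b: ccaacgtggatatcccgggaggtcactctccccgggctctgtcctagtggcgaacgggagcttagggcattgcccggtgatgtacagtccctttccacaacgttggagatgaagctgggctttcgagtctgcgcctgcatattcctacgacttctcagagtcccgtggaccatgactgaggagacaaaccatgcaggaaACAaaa
Snord118 (chr11:69073427-69073561, plus strand), the U8 gene, stands for the box C/D class. Capitals mark box C (ATGATGA) and box D (CTGA).
Snord118: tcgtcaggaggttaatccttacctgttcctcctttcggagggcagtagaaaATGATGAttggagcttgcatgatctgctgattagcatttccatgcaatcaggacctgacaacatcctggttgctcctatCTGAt

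No gene whose whole transcript has an identical annotated copy was among the members. Reads that align to several places were not counted, and of the 277 counted genes whose transcript is identical to that of another annotated gene of these biotypes, 0 were among the 139 members. The annotated U1 gene Rnu1a1 has 6 identical copies and had 0 counts, the U2 gene Rnu2-10 has 3 and had 0 counts, and the U6 gene Rnu6 has 42 and had 0 counts. The members are the relatives that differ. Gm22513 differs from Rnu1a1 by 1 base (T60C, with positions counted from 1 at the start of the RNA and the base of the first-named gene first), and Gm24305, another U1-type member, by A26G. Gm26316 differs from Rnu2-10 by C170T, Gm25939 by T69C, C78T and G109C, and Gm25360 by C78T, A95G, G109C and C154T. Gm24407 differs from Gm24265 by G88A and C99A. For such genes a read can be placed uniquely only where it or its mate covers a differing base or the flanking genome, so the values stand for those copies and not for the U1, U2 or U4 pool of the cell, and reads could be split between near-identical copies. The U5-type genes Gm23287 and Gm22265 show how far this can go, since their counts, on different chromosomes, lay at a ratio of 0.923 to 1.10 in every library. They are treated as uncertain. Snora43 matched another annotated gene named Snora43 at 100% identity, over at least 80% of both transcripts. Its reads could therefore also be lost or split.

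The members were also longer than the rest. Their median length was 135 bases, from 65 to 414, against 107 bases among the 2524 genes of these biotypes with 0 counts, and 13 of 139 members were shorter than 100 bases against 590 of those 2524. Letters typical of each class were searched on the RNA strand only. The Sm motif (ATTTNTG or ATTTTTTG, with no stretch that matches both) stood in 22 of 27 snRNA members (81.5%), in 20.5% of 1356 snRNA genes below the minimum and in 12.1% of all 2908 genes. ACA within 6 bases of the end stood in 20 of the 21 box H/ACA members and in 47 of the 58 unnamed snoRNA members, against 25.3% of all 2908 genes. TGATGA in the first 25 bases together with CTGA in the last 20 stood in 11 of the 16 box C/D members and in 6 of those 58, against 10.8% of all.

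Counts were concentrated in few genes. The 10 most counted members held 80.7% of all member counts, and 49 members had fewer than 100 counts in total. Per kilobase of gene length and averaged over the 8 libraries, Gm22513 stood highest at 2256 CPM per kb, followed by Snora73a at 1184, Rnu3a at 933 and Scarna2 at 884, against a median of 6.51 CPM per kb over the 139 members. CPM here are counts divided by the TMM-scaled library size, and levels of different genes are compared only per kilobase. Rankings of the most counted genes, shares of member counts and ratios between members are of counts, not corrected for length.

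The libraries held 26642067 to 42679114 counts on genes. Gfi1 had 5.49 and 7.15 CPM in the sick KD libraries, 6.17 and 7.03 in young KD, 14.0 and 14.4 in young KO, and 13.3 and 29.7 in old KO. The library labels were thus not checked by this gene, which had more counts under the KO label than under the KD label, and the human cDNA was not counted. The sick KD libraries stood apart in other measures too. Reads outside annotated genes were 42.0 and 38.8% of uniquely aligned reads in sick KD against 26.9 to 33.8% elsewhere, alignments to several places were 49.3 and 53.2% against 42.2 to 44.7%, and histone genes, whose replication-dependent mRNAs also lack a poly(A) tail, took 3.34 and 4.05% of gene counts against 1.5 to 1.65%. Genes of biotype misc_RNA took 1.86 and 2.67% against 0.832 to 1.06%, and ribozyme genes 1.22 and 1.64% against 0.487 to 0.632%. Mitochondrial genes took 1.42 and 1.16% against 0.464 to 0.787%. All of these shares were higher in both sick KD libraries than in the 6 others, as was the share of the small RNA genes, and their part in the results was not tested.

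**Figure D1:**
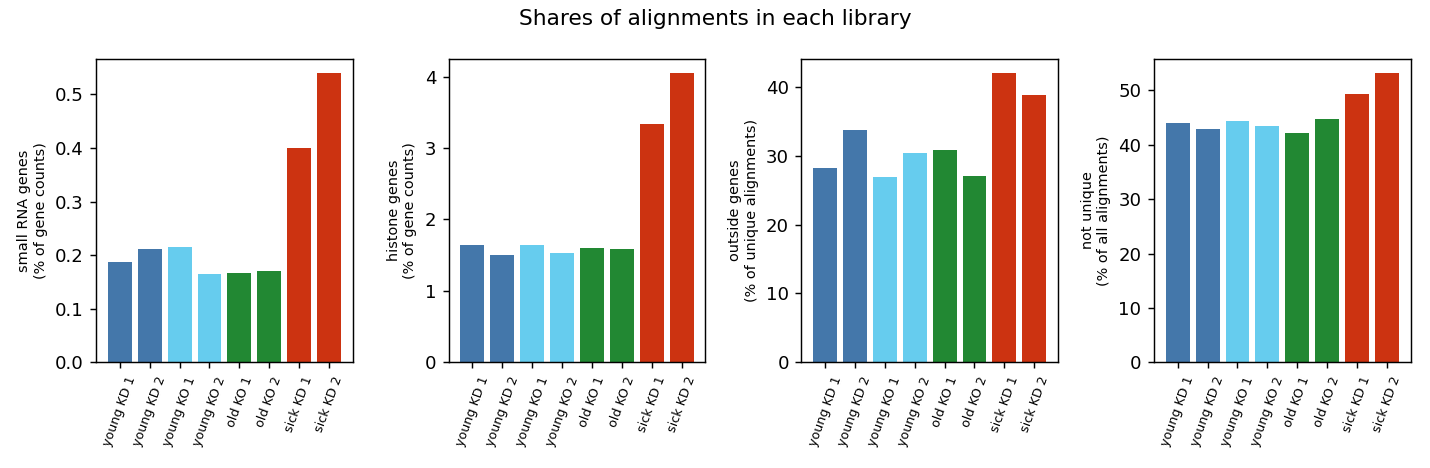
Bars give, for each of the 8 libraries, the percent of gene counts on the 139 small RNA genes, the percent on histone genes, the percent of uniquely aligned reads outside genes, and the percent of alignments that were not unique. The 2 sick KD libraries are highest in all 4 panels, with 0.399 and 0.540% on small RNA genes against 0.165 to 0.215% in the other 6.

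Cell type markers also moved with the sick KD group. Higher and lower here mean an adjusted p under 0.05 in edgeR's quasi-likelihood test. By it, 9.45% of all 14656 genes tested were higher in sick KD than in young KD and 11.4% lower. All 9 erythroid markers, all 8 B cell markers and all 6 stromal markers tested were lower in sick KD than in young KD, with summed levels of 781 and 1198 against 4946 and 1895 CPM for the erythroid list, 35.9 and 87.0 against 722 and 595 for the B cell list and 24.7 and 23.1 against 162 and 203 for the stromal list. Of 10 neutrophil and promyelocyte markers 4 were higher, with 10131 and 8264 against 5354 and 5971 CPM. Of 7 monocyte markers 2 were higher and 1 lower (9784 and 9141 against 6122 and 7910 CPM), of 8 T and NK cell markers 4 were lower (22.9 and 17.1 against 42.1 and 43.1 CPM), and of 6 megakaryocyte markers 0 passed (137 and 72.3 against 87.8 and 234 CPM). In the young KO and old KO libraries the summed levels were 1754 to 5678 CPM for the erythroid list, 114 to 625 for B cell, 101 to 203 for stromal, 4614 to 6007 for neutrophil and promyelocyte, 6999 to 8363 for monocyte, 39.0 to 53.3 for T and NK cell and 54.3 to 251 for megakaryocyte. Every marker of the 7 lists had counts in each library, as in whole marrow. In bulk samples fewer cells of a type and less RNA per cell cannot be told apart, and the part of the cell mixture in the small RNA values was not tested.

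The first question is how the small RNA genes of sick KD mice compared with those of young KD mice of the same genotype. The sick KD mice were also older, 187 and 78 days against 39 and 42, so disease and age cannot be told apart here. The small RNA genes were higher in sick KD in every class. Summed over the 139 members the level was 4296 and 5788 CPM in the sick KD libraries, 1812 and 2037 in young KD, 2084 and 1617 in young KO, and 1619 and 1718 in old KO, so that the lower sick KD value was over the highest of the other 6. As a share of gene counts these were 0.399% (95% Wilson interval 0.397 to 0.402) and 0.540% (0.537 to 0.543) in sick KD, and between 0.165% and 0.215% in the others. The intervals cover counting error only.

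**Figure D2:**
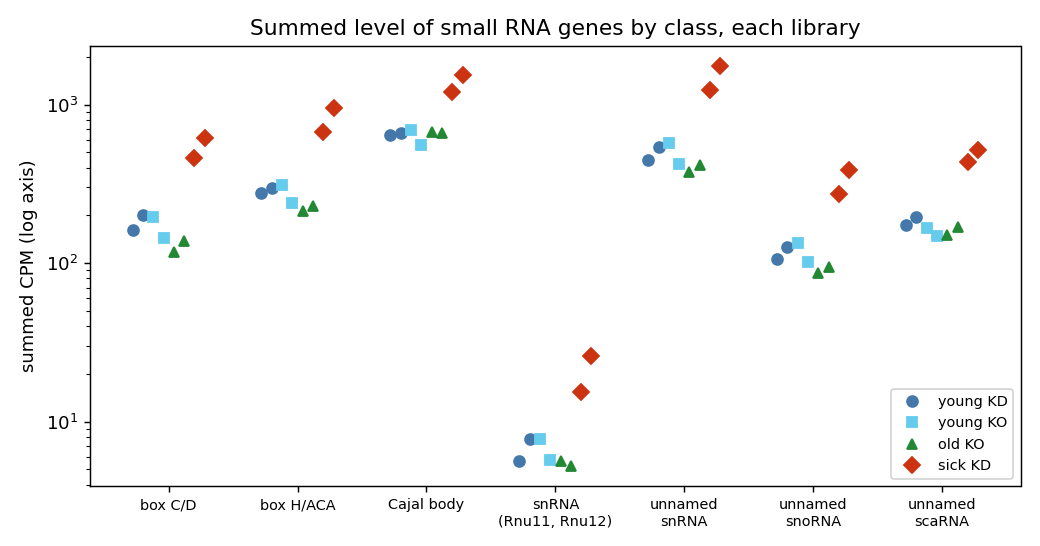
Each point is 1 library's CPM summed over the members of a class, on a log axis, with groups of 2 libraries in color. In every class both sick KD libraries lie above the 6 others, for box C/D at 459 and 612 CPM against 117 to 200.

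In edgeR's quasi-likelihood test on the 4 KD libraries, 80 of the 103 members tested were higher in sick KD and 0 were lower, at an adjusted p under 0.05. Among all 14656 genes tested, 9.45% were called higher and 11.4% lower. The median log2 fold change of the 103 members was 1.53, from 0.643 to 2.82, against 0.01 over all genes tested. The filter on low counts can pass a gene through the group in which it is high, so the count is also given without it, and then 99 of all 139 members were higher and 0 lower. The minimum of 20 counts that defines the members sums over the sick KD libraries too. Counts without the filter, here and below, are therefore not free of this selection, and no share of all genes is given beside them. Among the 91 members that also passed the filter in the young libraries alone, 74 were higher. Of the 101 members with no exon of another gene over them on either strand, 72 were tested and 58 were higher. Leaving out the second sick KD mouse gave 46 of 104, and leaving out the first young KD mouse 51 of 120, each higher in sick KD. Of the 80 members, 41 were called in every alternative that was run, among them 20 of the 27 called members named below. The calls of Snord13, Snora43, Rnu12, Snord83b, Gm24313, Gm23287 and Gm22265 did not hold in every one. Both sick KD libraries lay above all 6 others in 118 of the 139 members, against 24.6% of the 15102 genes tested over all 8 libraries. The 139 and the 15102 genes passed different minimum counts, so these shares are not strictly alike.

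By class, 9 of 12 box C/D members tested were higher (median log2 fold change 1.75), 13 of 18 box H/ACA members (1.49), 6 of 8 Cajal body members (1.33), both Rnu11 and Rnu12 (1.61) and 50 of 63 unnamed members (1.55). Within the unnamed genes these were 14 of 15 snRNA genes (1.66), 30 of 42 snoRNA genes (1.47) and 6 of 6 scaRNA genes (1.52). The composition of the pool changed less than its size. Box C/D genes made 10.7 and 10.6% of member counts in sick KD against 7.23 to 9.81% in the others, unnamed snRNA genes 29.0 and 30.3% against 23.2 to 27.6%, and Cajal body genes 27.8 and 26.6% against 32.5 to 41.4%.

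Among RNAs of the major spliceosome, all 13 tested members of 19 with the sequence type of U1, U2, U4 or U5 were higher in sick KD. The U1-type gene Gm22513 had 586 and 902 CPM in sick KD, 205 and 228 in old KO, 299 and 216 in young KO and 241 and 283 in young KD. Its sick KD values were over the 6 others, which ran from 205 to 299 CPM, and its log2 fold change was 1.5 ± 0.22 (SE, adjusted p = 0.00993). For the U2-type gene Gm25360 the levels were 94.2 and 85.3 CPM in sick KD, 9.73 and 13.8 in old KO, 25 and 20.8 in young KO and 20.6 and 25.1 in young KD. Here the sick KD libraries were highest and the old KO libraries lowest, with no overlap of either with the young libraries, and the change from young to sick KD was 1.97 ± 0.14 (SE, adjusted p = 0.00262). Gm25939, the more counted U2-type gene, had 216 and 276 CPM in sick KD, 46.0 and 55.2 in old KO, 86.0 and 68.8 in young KO and 70.8 and 89.9 in young KD, and changed by 1.61 ± 0.17 (SE, adjusted p = 0.00519). The same order of groups held as for Gm25360.

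The U4-type gene Gm24265 had 102 and 179 CPM in sick KD, 45.6 and 45.8 in old KO, 58.3 and 36.5 in young KO and 38.6 and 49.7 in young KD. The sick KD libraries stood apart from the 6 others in it, its log2 fold change was 1.66 ± 0.27 (SE, adjusted p = 0.0131), and its tandem partner Gm24407 gave 1.59 ± 0.27 (SE, adjusted p = 0.0136). Of 5 U5-type members 4 were tested and all 4 were called, with log2 fold changes of 1.16 to 1.99. They were sparse, with summed levels of 16.2 and 15.3 CPM in sick KD, 2.22 and 4.14 in old KO, 7.48 and 6.67 in young KO and 5.98 and 6.64 in young KD.

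Rnu12 and Rnu11 of the minor spliceosome rose as well. Rnu12, whose RNA pairs with the branch point of minor introns, had 8.84 and 15.4 CPM in sick KD, 2.50 and 2.91 in old KO, 4.39 and 2.92 in young KO and 2.88 and 4.74 in young KD, and changed by 1.67 ± 0.35 (SE, adjusted p = 0.0235) on the log2 scale. Rnu11, whose RNA pairs with the start of these introns, had 6.42 and 10.6 CPM in sick KD, 3.10 and 2.35 in old KO, 3.36 and 2.77 in young KO and 2.75 and 3.05 in young KD, a change of 1.55 ± 0.29 (SE, adjusted p = 0.0176). In both genes the sick KD values were over all others, which ran from 2.35 to 3.36 CPM for Rnu11. The annotation has an antisense transcript, Gm28872, over Rnu11. The genes with the sequences of U6atac and U4atac, Gm25541 and Gm22710, were picked out after their values were seen. Gm25541 changed by 1.79 ± 0.29 (SE, adjusted p = 0.0125), whereas Gm22710 did not pass, at 1.29 ± 0.38 (SE, adjusted p = 0.0582).

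Of the box C/D genes, Rnu3a encodes U3, which serves the processing of the small subunit ribosomal RNA. It had 373 and 491 CPM in sick KD, 80.7 and 102 in old KO, 154 and 115 in young KO and 127 and 155 in young KD. Both sick KD values were over all others and both old KO values were under all others, and the change from young to sick KD was 1.61 ± 0.18 (SE, adjusted p = 0.00532). Snord118, the U8 gene that serves the large subunit, had 4.81 and 7.79 CPM in sick KD, 1.87 and 2.04 in old KO, 2.07 and 1.46 in young KO and 1.91 and 1.45 in young KD, a log2 fold change of 1.90 ± 0.32 (SE, adjusted p = 0.0144). Snord13, the U13 gene, had 1.66 and 2.28 CPM in sick KD, 0.634 and 0.485 in old KO, 0.864 and 0.609 in young KO and 0.669 and 0.784 in young KD, a change of 1.43 ± 0.32 (SE, adjusted p = 0.0276). In both genes the 2 sick KD libraries were over the 6 others. The methylation guide Snord17, in an intron of Snx5, changed by 1.34 ± 0.19 (SE, adjusted p = 0.00942), and Snord15a, in Rps3, missed the threshold at 1.09 ± 0.31 (SE, adjusted p = 0.0502). Snord83b, in Rpl3, had the second largest change of all members, 2.75 ± 0.63 (SE, adjusted p = 0.0293), on 0.525 and 1.17 CPM in sick KD and 0.0744 and 0.181 in young KD. The young KD values were of 3 and 6 counts. In young KO it had 0.545 and 0.213 CPM and in old KO 0.282 and 0.281, so the sick KD libraries did not stand apart from the others in it.

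Of the box H/ACA genes, Snora73a and Snora73b encode U17, which serves processing of the small subunit ribosomal RNA and lies in introns of Rcc1. Snora73a had 418 and 582 CPM in sick KD, 122 and 137 in old KO, 187 and 148 in young KO and 169.8 and 178 in young KD. Snora73b had 168 and 242 CPM in sick KD, 48.0 and 56.3 in old KO, 76.9 and 54.8 in young KO and 67.2 and 73.8 in young KD. Each was highest in the sick KD libraries, and the log2 fold changes were 1.52 ± 0.17 (SE, adjusted p = 0.0057) and 1.53 ± 0.19 (SE, adjusted p = 0.00628). The antisense gene Gm17300 covers both. Snora78, in Snhg9, changed by 1.47 ± 0.26 (SE, adjusted p = 0.0152) and Snora57 by 1.55 ± 0.27 (SE, adjusted p = 0.0144). Snora43 had the smallest called change among all members named here, 0.87 ± 0.17 (SE, adjusted p = 0.0189), from 13.3 and 17.8 CPM to 27.4 and 29.5.

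The 3 most counted Cajal body genes had smaller fold changes than the next 2. Scarna2, a guide for U2 and the most counted member, had 491 and 688 CPM in sick KD, 327 and 322 in old KO, 300.2 and 239.6 in young KO and 272 and 289.6 in young KD. Its sick KD values were the highest and its old KO values came next, over all 4 young ones, and its log2 fold change was 1.06 ± 0.18 (SE, adjusted p = 0.0132). Scarna10, a guide for U5 that shares exonic positions with Ncapd2, had 415 and 472 CPM in sick KD, 203 and 199 in old KO, 236 and 199 in young KO and 229.9 and 235 in young KD, a change of 0.93 ± 0.12 (SE, adjusted p = 0.00728). Scarna13 gave 1.22 ± 0.15 (SE, adjusted p = 0.0069), Scarna6 1.63 ± 0.19 (SE, adjusted p = 0.00568) and Scarna3a 1.61 ± 0.30 (SE, adjusted p = 0.0177). Gm22009, an unnamed scaRNA gene in an intron of Kpna4, had 381 and 433 CPM in sick KD, 127 and 144 in old KO, 139.8 and 128 in young KO and 149.6 and 169 in young KD. Its sick KD values were over all others, and the change was 1.35 ± 0.13 (SE, adjusted p = 0.00414).

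**Figure D3:**
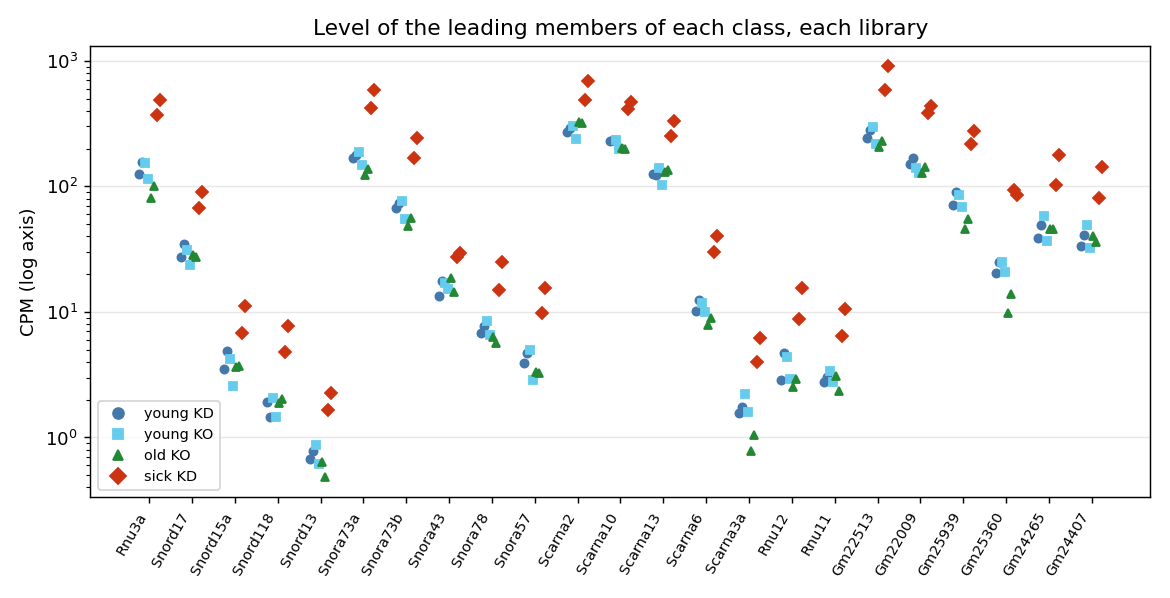
CPM of 23 leading members in each of the 8 libraries, on a log axis, with color and shape for the group. Both sick KD points lie above the other 6 in each of the 23 genes. Both old KO points lie lowest for Rnu3a, Snora73a, Snora78, Scarna6, Scarna3a, Gm25939 and Gm25360.

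A pair of unnamed snoRNA genes showed larger changes than any gene with a class name except Snord83b. Gm24727, in an intron of Gsr, had 15.8 and 15.8 CPM in sick KD, 2.85 and 3.65 in old KO, 4.29 and 3.05 in young KO and 2.80 and 3.44 in young KD. The sick KD values were nearly equal to each other and over all others, a log2 fold change of 2.34 ± 0.19 (SE, adjusted p = 0.00327). Gm24313, in an intron of Tbrg4, gave 2.82 ± 0.48 (SE, adjusted p = 0.0144) on few counts, with 15 and 17 counts in sick KD and 3 and 3 in young KD. Of the 47 unnamed snoRNA genes with ACA near the end, 35 were tested and 26 were higher in sick KD, with a median log2 fold change of 1.42.

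Old KO mice were next set against the sick KD mice, the question being how older mice labelled KO differ from KD mice with disease. The Gfi1 values above were 13.3 and 29.7 CPM under the old KO label and 5.49 and 7.15 under the sick KD label. They were higher under the label of mice described as lacking Gfi1, but the human cDNA of KD mice was not counted. This gene therefore could not check the labels, on which the directions rest. Genotype and disease cannot be told apart in this comparison. This comparison shares the sick KD libraries with the one above. Of 101 members tested, 78 were lower in old KO and 0 higher, where 8.22% of all 14470 genes tested were called lower and 9.93% higher. The median log2 fold change was -1.84, from -4.99 (Scarna8, where the fit depends on its prior count) to -0.650, against -0.005 over all genes. Without the filter 102 of 139 were lower and 0 higher, and without the second sick KD mouse 50 of 103 were lower. In every alternative 46 members were called, among them 20 of 28 named ones, and those not called in every one were Snord15a, Snord13, Snora43, Scarna2, Scarna8, Gm24313, Gm23287 and Gm22265.

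By class, 7 of 12 box C/D members were lower in old KO (median log2 fold change -1.75), 12 of 17 box H/ACA members (-1.94), 6 of 8 Cajal body members (-1.26), both Rnu genes (-1.90) and 51 of 62 unnamed members (-1.84), among them 14 of 15 snRNA genes (-2.27). Gm25360 fell by 2.92 ± 0.18 on the log2 scale (SE, adjusted p = 0.00265) and the U1-type Gm22513 by 1.78 ± 0.22 (adjusted p = 0.00566). Rnu3a changed by -2.24 ± 0.19 (SE, adjusted p = 0.00373), Rnu12 by -2.16 ± 0.31 (SE, adjusted p = 0.00818), Snora73a by -1.94 ± 0.19 (SE, adjusted p = 0.00416) and Scarna2 by -0.86 ± 0.19 (SE, adjusted p = 0.0247). The largest fitted changes were of sparse genes. Scarna8, a guide for U2 in an intron of Haus6, had 15 and 17 counts in sick KD and 1 and 0 in old KO, a ratio of 40.9 at equal depth with an exact 95% counting interval of 6.83 to 1664. Gm23287 and Gm22265, the U5-type pair that could share reads, gave -3.06 ± 0.59 (SE, adjusted p = 0.0181) and -3.04 ± 0.59 (SE, adjusted p = 0.0187).

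Between the young groups no small RNA gene was called. Young KO and young KD gave 0 of 91 members by edgeR and 0 by DESeq2, where edgeR called 0.0404% of all 14839 genes tested. At an unadjusted p under 0.05 in edgeR there were 2 of the 91 members and 394 of the 14839 genes. The median log2 fold change was 0.02, from -0.880 to 0.796. The log2 fold change of Gm22513 was -0.03 ± 0.16 (SE, adjusted p = 1), that of Rnu3a -0.07 ± 0.16 (SE, adjusted p = 1) and that of Snora73a -0.06 ± 0.12 (SE, adjusted p = 1). Within young KO the first mouse had the higher level in 116 of the 139 members, and within young KD the second mouse in 101, and the summed level of the members differed by more between the 2 mice of each group than between the group means.

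Old KO and young KO shared no library with sick KD. Of 91 members tested 0 were called by edgeR, where 0.929% of 14847 genes were called. At an unadjusted p under 0.05 there were 17 of the 91 members and 1315 of the 14847 genes. The median log2 fold change was -0.33, and 21 of 91 members had a positive one, against 7400 of the 14847 genes. The median of the members was -0.05 without the first young KO mouse and -0.53 without the second. The lowest were of the U5-type pair Gm23287 and Gm22265, at -1.88 ± 0.66 (SE, adjusted p = 0.454) and -1.85 ± 0.64 (SE, adjusted p = 0.453). Gm25360 had 9.73 and 13.8 CPM in old KO against 25 and 20.8 in young KO, a log2 fold change of -0.96 ± 0.20 (SE, adjusted p = 0.136). Gm25939 gave -0.61 ± 0.14 (SE, adjusted p = 0.188) and Rnu3a -0.56 ± 0.17 (SE, adjusted p = 0.355), while the U4-type Gm24265 gave -0.06 ± 0.21 (SE, adjusted p = 0.977) and Scarna2 0.26 ± 0.12 (SE, adjusted p = 0.641). DESeq2 called 3 members lower, Gm25360, Gm25939 and Gm22973, all of them U2-type. Both old KO libraries lay under both young KO libraries in 37 of the 91 members tested, against 2810 of the 14847 genes. They lay under all 6 others in 33 of the 139 members, against 5.15% of 15102 genes. Those 6 include the sick KD libraries, which lay above all others in 118 of the 139 members, so the last 2 shares are not free of the sick KD values.

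**Figure D4:**
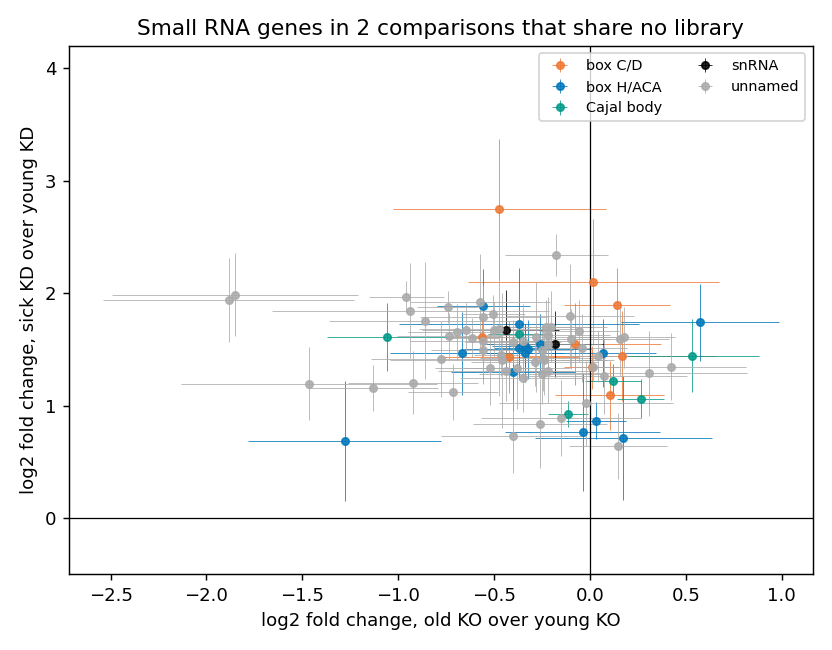
Each point is 1 member tested in both comparisons, with its log2 fold change of old KO over young KO on the horizontal axis and of sick KD over young KD on the vertical axis, bars giving the SE of each. All points lie above 0 on the vertical axis, and most lie left of 0 on the horizontal axis, where 0 of 91 members passed the test.

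Whether the KO to KD difference was itself different in old or sick mice and in young mice was tested as an interaction over all 8 libraries. This test reused the sick KD libraries. The older KD mice were all sick, so genotype and disease cannot be told apart in it. Of 104 members 48 passed, all with a negative coefficient, where 3.11% of 15102 genes passed with a negative and 4.32% with a positive one. The median coefficient was -1.86 against 0.000447 over all genes. They were 2 of 12 box C/D, 7 of 19 box H/ACA, 4 of 8 Cajal body, 2 of 2 Rnu and 33 of 63 unnamed members. Leaving out 1 mouse gave between 8 calls (without the first young KD mouse) and 38 (without the first sick KD mouse), and testing without the filter gave 78. Of 21 named members that passed, 6 passed in every alternative. Gm25360 had a coefficient of -2.93 ± 0.26 (SE, adjusted p = 0.00769), Gm25939 of -2.22 ± 0.25 (SE, adjusted p = 0.008) and Rnu3a of -2.18 ± 0.28 (SE, adjusted p = 0.0107). Scarna2 did not pass, at -0.80 ± 0.24 (SE, adjusted p = 0.0749). The members that passed in each alternative that was run were Gm22009, Gm22973, Gm24305, Gm24727, Gm25360, Gm25939, Rnu3a and Scarna6.

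Ratios between members of 1 library do not depend on scaling. Snora73a was counted 2.41 to 2.70 times as often as Snora73b in each of the 8 libraries, and the U4-type Gm24265 1.13 to 1.26 times as often as Gm24407, and both pairs are near-identical copies that could share reads. Rnu12 to Rnu11 was 1.38 and 1.46 in sick KD, 0.807 and 1.24 in old KO and 1.05 to 1.55 in the young libraries, which overlap both of the other groups. Other pairs varied more. The U2-type Gm25939 was counted 2.29 and 3.23 times as often as Gm25360 in sick KD, 4.73 and 3.99 times in old KO, and 3.30 to 3.58 times in the young libraries. Set against Scarna2, Gm25360 counts were 0.192 and 0.124 in sick KD, 0.0297 and 0.0430 in old KO and 0.0756 to 0.0870 in the young libraries. With 2 mice in each group an exact permutation test has a smallest two-sided p of 0.333, and none was made on these ratios.

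A host gene on the same strand was annotated for 106 of the 139 members, in 91 different genes. It was protein-coding for 96 members, encoded a ribosomal protein for 20, and overlapped 22 members with an exon. In sick KD against young KD, 77 members and their 65 hosts were tested, and the median log2 fold change was 1.5 for the members and 0.09 for the hosts, of which 10 were higher and 5 lower. Each of the 77 members had a larger log2 fold change than its host. Of the 56 called members, 44 had a host that was not called, 9 a host called in the same direction and 3 a host called lower. Among all 14656 genes tested, 11593 were not called, 9.45% were called higher and 11.4% lower. The host calls are therefore not read as particular to hosts. The values on the log2 scale were -0.26 (adjusted p = 0.204) for Rcc1 around Snora73a and Snora73b, -0.002 (adjusted p = 0.994) for Gsr around Gm24727 and -0.40 (adjusted p = 0.0798) for Kpna4 around Gm22009. They were 0.16 (adjusted p = 0.353) for Snx5 around Snord17, 0.29 (adjusted p = 0.103) for Rps3 around Snord15a, 0.18 (adjusted p = 0.293) for Rpl3 around Snord83b, 0.45 (adjusted p = 0.320) for Snhg9 around Snora78, 0.30 (adjusted p = 0.0737) for Atg16l1 around Scarna6, 0.32 (adjusted p = 0.131) for Cop1 around Scarna3a, -0.19 (adjusted p = 0.334) for Haus6 around Scarna8 and 0.04 (adjusted p = 0.967) for D230017M19Rik around Gm25939. Of the hosts of named members that were tested, Tbrg4 rose by 0.39 (adjusted p = 0.0428) around Gm24313, and Ncapd2 fell by 0.64 (adjusted p = 0.0165) around Scarna10. Of the members without a host, 24 of 26 tested were higher, with a median of 1.59. Across the 77 pairs Pearson's r was 0.07 and Spearman's rho 0.04, as a description over genes that share 4 libraries. In old KO against sick KD, 74 members with a median of -1.80 stood beside 64 hosts with a median of -0.10.

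**Figure D5:**
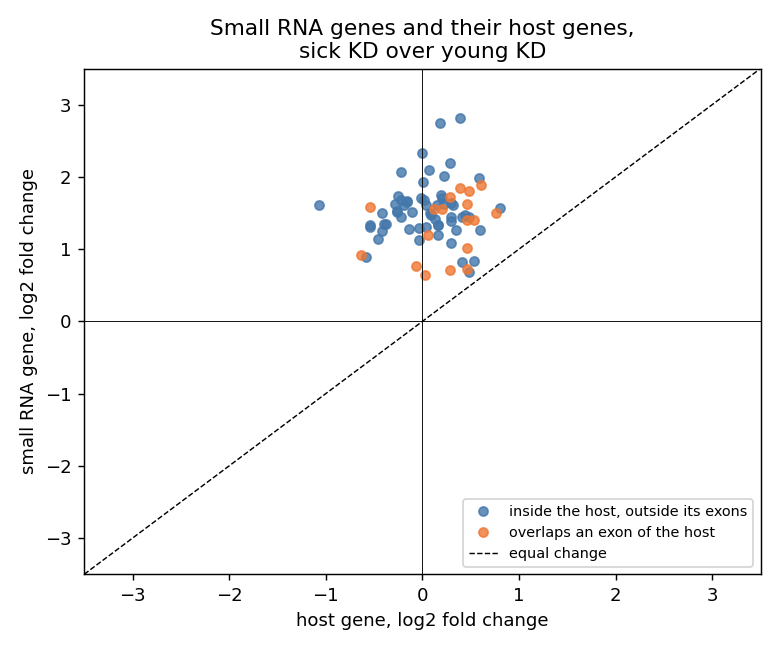
Each point is 1 of 77 small RNA genes, with the log2 fold change of its host gene on the horizontal axis and its own on the vertical axis, for sick KD over young KD. All 77 lie above the dashed line of equal change, with a median of 1.5 for the small RNA genes and 0.09 for the hosts.

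The proteins that bind, assemble or trim these RNAs were examined as 130 genes in 6 lists, all tested. In sick KD against young KD 6 were higher and 13 lower, with a median log2 fold change of -0.01, where 9.45% and 11.4% of all genes were called. Without the first young KD mouse 0 were called. The split depends on scaling and is 0 higher and 54 lower when counts are scaled to all uniquely aligned reads, under which the median of all genes is itself -0.34. Of 30 snRNP-specific proteins 0 were higher and 9 lower (median -0.27). Pdcd7, a protein of the U11/U12 particle, changed by -0.80 ± 0.16 (adjusted p = 0.0204), from 36.3 and 31.5 CPM in young KD to 17.3 and 21.9 in sick KD, and Sf3b2, of the U2 particle, by -0.79 ± 0.13 (adjusted p = 0.0143). Of 13 box C/D proteins and assembly factors 0 were called, with 4 at an unadjusted p under 0.05, against 5540 of all 14656 genes tested. Of 8 box H/ACA proteins only the core protein gene Nhp2 was called, at 0.59 ± 0.10 (adjusted p = 0.0149), with 91.9 and 85.2 CPM in sick KD and 58.7 and 58.6 in young KD. Of 27 Sm and LSm genes the methylosome gene Wdr77 was the one called (-0.45 ± 0.11, adjusted p = 0.0336).

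Of 31 genes for snRNA transcription and end processing 2 were higher and 2 lower. Snapc3, a subunit of the activator of snRNA genes, changed by 0.65 ± 0.17 (adjusted p = 0.0384), with 59.4 and 45.4 CPM in sick KD against 30.3 and 36.1, and Ncbp2, the small subunit of the cap binding complex, by -0.62 ± 0.11 (adjusted p = 0.0166). Of 21 genes for trimming and turnover 3 were higher and 1 lower. Zcchc7, of the nuclear polyadenylation complex that marks RNAs for the exosome, changed by 0.71 ± 0.15 (adjusted p = 0.0224), and Exosc1, of the exosome, by 0.61 ± 0.12 (adjusted p = 0.0206).

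In old KO against sick KD, 12 of the 130 were higher and 8 lower, where 9.93% and 8.22% of all genes were called, and without the first sick KD mouse 5 were called. Scaled to all uniquely aligned reads, 61 were higher and 3 lower, with a median of all genes of 0.37. Without the second old KO mouse 3 were higher and 6 lower. Snapc3 fell by 1.02 ± 0.16 on the log2 scale (adjusted p = 0.00951), Zcchc7 by 0.83 ± 0.14 (adjusted p = 0.0129), Nhp2 by 0.55 ± 0.12 (adjusted p = 0.0239), Exosc1 by 0.54 ± 0.13 (adjusted p = 0.0331) and Pou2f1, an activator of snRNA genes, by 1.36 ± 0.30 (adjusted p = 0.0268). Sf3b2 was higher by 0.79 ± 0.14 (adjusted p = 0.0151), Pdcd7 by 0.81 ± 0.15 (adjusted p = 0.0169) and Lsm11, of the U7 particle, by 0.67 ± 0.16 (adjusted p = 0.0324). Between the young groups, and between old KO and young KO, 0 of the 130 were called by edgeR, with 1 at an unadjusted p under 0.05 in each. Over all genes tested, 394 of 14839 and 1315 of 14847 were under that unadjusted p. In the interaction 4 were called with a positive and 3 with a negative coefficient, where 4.32% and 3.11% of all genes passed. With a mouse left out 0 were called in 6 of 8 cases, 12 without the second sick KD mouse and 1 without the second old KO mouse.

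The minimum of 20 counts divides the genes at a level where little can be measured. Just inside it, Gm23458, Gm24959 and Gm26244 each had 20 counts over the 8 libraries, with 0 to 6 per library. Gm26244 had 3 and 6 counts in sick KD, 0 and 0 in old KO, 4 and 1 in young KO and 4 and 2 in young KD, while Gm23458 and Gm24959 were highest in young KD, and just outside it Gm25617 had 19 and the box C/D gene Snord65 had 18. All 3 members with 20 counts failed the filter on low counts in the comparisons. Of the hosts of these genes, Bcl7a around Gm23458 fell by 2.53 in sick KD against young KD (adjusted p = 0.00489), and Trappc8 around Gm24959 had a value of 0.21 (adjusted p = 0.274). The annotated U5 gene Rnu5g, with 17 counts, and Rnu73b, with 18, also fell below.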

How the data were processed

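RNA-seq of total bone marrow from 8 mice, 2 in each of 4 groups taken from the sample labels, was analysed. The authors prepared libraries with a stranded kit that selects poly(A) RNA, aligned reads to mm10 with TopHat2 2.0.10, used SAMtools and HTSeq, and deposited raw read counts per Ensembl gene, with 41214 genes and 5 tallies of unassigned alignments per library. The HTSeq and Ensembl versions and the strand setting are not given in the sources used here. The tallies, 59.7 to 71.6% of all alignments, stayed out of library sizes and tests. Reads that aligned to several places were not counted, so small RNAs with identical copies are largely lost.

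Biotypes, symbols and positions came from GENCODE M21 (GRCm38, the sequence behind mm10), which holds 40254 of the 41214 identifiers. edgeR 4.0.16 (R 4.3.3) was used on the counts (TMM, filterByExpr by group, quasi-likelihood test, Benjamini-Hochberg adjusted p under 0.05 over all genes tested), each pair of groups on its own 4 libraries and the interaction on all 8. SE values were obtained from the log2 fold change and the F statistic of each gene. Relatives were found with blastn 2.17.0 (at least 85% identity over 80% of both transcripts), and copies of equal length were compared base by base. A U1, U2 or U5 type was given by the closest annotated relative. U4, U4atac and U6atac were recognised by their known sequence.

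Libraries held 26642067 to 42679114 counts on genes, and precision was judged from the 2 mice of each group. Alternatives were DESeq2 1.42.0, other scalings, other filters, all 8 mice together and leaving out each mouse. Scaling to all uniquely aligned reads was added after the tallies had been seen. The members, gene lists and comparisons were chosen with earlier results of these data known. The genes named are, by rule, the 5 members with most counts in each class, the 3 called members with the largest change in each direction of a comparison, every Rnu member, U8, U13 and U17, those at the 20-count minimum, hosts of named members, and the 2 called genes with the largest change of each protein list in comparisons with sick KD. Gm22973, Gm24305, Gm26316, Gm25541, Gm22710 and Gm26244 were named after their values were seen. The procedure was tested on simulated data with 200 changed genes.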

Additional observations from a re-analysis of the deposited data

Results flagged for a closer look

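The KO to KD difference of small RNA genes was not the same between old KO and sick KD as between young KO and young KD. By the interaction test it differed in 48 of 104 members tested, all with a negative coefficient, where 3.11% of all genes passed with a negative and 4.32% with a positive one. Without the first young KD mouse 8 members passed. Of the 21 named members that passed, 6 passed in every alternative run (Rnu3a, Scarna6, Gm22009, Gm25939, Gm24727 and Gm25360). These are comparisons between groups of 2 mice, and the coefficient is the log2 difference of old KO and sick KD minus that of young KO and young KD. It reuses the sick KD libraries, and genotype and disease cannot be told apart in it.

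Among the members named in the report, coefficients were -2.18 for Rnu3a and -1.34 for Snord17 of box C/D. They were -1.89 for Snora73a, -1.88 for Snora73b, -1.81 for Snora78 and -1.81 for Snora57 of box H/ACA. Of the Cajal body genes Scarna10 had -1.05, Scarna13 -1.11, Scarna6 -2.01 and Scarna3a -2.67. Rnu12 had -2.11 and Rnu11 -1.73.

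Of the unnamed genes, the U1-type Gm22513 had -1.75, the U2-type Gm25939 -2.22 and Gm25360 -2.93, the U4-type Gm24265 -1.73 and Gm24407 -1.70, and the U5-type Gm23287 -3.83 and Gm22265 -3.84. Gm22009, a scaRNA gene, had -1.34 and Gm24727, a snoRNA gene, -2.52. Over these genes the log2 fold change of young KO over young KD ran from -0.25 (Gm22009) to 0.80 (Gm22265), and that of old KO over sick KD from -3.06 (Gm23287) to -1.12 (Scarna13). The share of reads outside genes, the share of alignments that were not unique, the histone share and the mitochondrial share were also highest in both sick KD libraries, and their part in these coefficients was not tested.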

How the results depend on the processing

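No paired analysis was possible because the labels number each mouse on its own and no number is shared between groups. With 2 mice per group, leaving out 1 leaves a lone library that is assumed to vary like the others.

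Called members kept their direction in every alternative. In sick KD against young KD 59 to 99 members were higher over the other alternatives and 46 to 76 with a mouse left out, and in old KO against sick KD 58 to 102 and 50 to 73 were lower. Both low ends came from the filter on a mean of 50 counts or from the second sick KD mouse. Scaling to all uniquely aligned reads moved the median of all genes to -0.34 and 0.37 in these comparisons, and 73 and 72 members were called, with medians of 1.19 and -1.47, or 1.53 and -1.84 once that shift is subtracted. Young KO against young KD gave 0 members in each alternative. In old KO against young KO, DESeq2 called 3 lower, no filter called 9 and leaving out a mouse 0 to 1, that 1 being Gm25360 without the second old KO mouse. In the interaction no filter called 78 members and leaving out a mouse 8 to 38.

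Partner proteins were less stable. In sick KD against young KD 31 were called with all 8 mice together, 54 with scaling to all uniquely aligned reads, and 0 to 23 with a mouse left out (0 without the first young KD mouse). In old KO against sick KD these were 36, 64 and 5 to 21 (5 without the first sick KD mouse, 6 without the first old KO mouse), and the majority turned to lower without the second sick KD mouse (21, of which 11 lower) and without the second old KO mouse (9, of which 6 lower). In the interaction DESeq2 called 16, no filter 14, scaling to all uniquely aligned reads 25, TMM on protein-coding genes 9 (5 of them negative, which turned the majority), and leaving out a mouse 0 to 12, with 1 negative call without the second old KO mouse. The cause was not tested. Among the named members, no coefficient or fold change turned its sign, 885 repeats stayed on their side of the threshold, 110 lost the call and 24 gained it. Without Scarna2, the members' share of gene counts was 0.354 and 0.476% in sick KD and 0.133 to 0.184% in the others. Depth limits the 49 members with fewer than 100 counts.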
